A study of Mus musculus with 16 samples.

Results

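The comparison described here set TKO against WT mouse embryonic stem cells at day 0, in naive culture, before any differentiation. It used 4 of the 16 libraries of the series, the 2 titled TKO at day 0 and the 2 titled WT at day 0, and every gene of the annotation. The cells were the male mouse embryonic stem cell line ES-E14TG2a (E14) of the WT genotype or the TKO genotype. Both were kept for weeks on fibronectin-coated plates in serum-free N2B27 medium with 1000 U/ml of leukaemia inhibitory factor (LIF), 3 µM of a Gsk3 inhibitor, 1 µM of a MEK inhibitor and 100 µg/ml of vitamin C. The labels do not expand TKO or state how many clones stand behind it. It was taken here, as an assumption, to mean loss of the DNA methyltransferases Dnmt1, Dnmt3a and Dnmt3b. The remaining 12 libraries were TKO and WT cells after 2, 4 and 7 days in Fgf2 and activin A, which drive differentiation towards epiblast-like cells. They entered the fit as a source for the spread between replicates and one closing comparison.

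In naive culture the inhibitors hold embryonic stem cells close to the state of the early epiblast. Blocking MEK keeps the kinase ERK from being activated by Fgf4, the cells' own ligand, and blocking Gsk3 stabilises beta-catenin. Genomic methylation is low in such medium, and vitamin C, a cofactor of the Tet dioxygenases, is known to lower it further. In mouse cells CpG methylation of promoters is known to keep a set of germline genes silent, and the variant Polycomb complex PRC1.6, with the DNA-binding proteins E2f6 and Mga with Max, is known to act on many of the same promoters.

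The 2 TKO libraries held 35226138 and 34776801 estimated counts and the 2 WT libraries 39799498 and 40421571. Levels are given as CPM, a gene's counts scaled to a fixed library total after scaling of the libraries by the trimmed mean of M-values (TMM), so that a level may be set between libraries for one gene and not between genes. The labels call the libraries biological replicates and do not say whether they were separate cultures, so p-values measure only the spread between libraries. In the fit of all 16 libraries this spread is an estimate per gene that all 8 groups share. Its common biological coefficient of variation was 0.111, against 0.185 for the WT day 0 libraries alone and 0.0168 for the TKO day 0 libraries. The p-values of that fit may therefore understate the spread of WT at day 0. A fit of only the 4 day 0 libraries, used below, shares its estimate between TKO and WT. Its common coefficient was 0.129, so its p-values may understate the spread of WT as well. The spread between replicates at day 0 was unequal. Among genes of at least 5 CPM, 6 of 10486 differed by over 2-fold between the TKO replicates, whereas 120 of 10696 did between the WT replicates, 108 of them higher in WT replicate 2 and 12 higher in WT replicate 1.

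The difference between the WT replicates followed transcript length. Over 10502 genes of known transcript length, split into 6 groups of equal size, the median log2 ratio of WT replicate 1 over WT replicate 2 was 0.37 in the shortest group (86 to 1224 bases) and -0.35 in the longest (4934 bases or more). The ratio of the TKO mean over WT replicate 1 ran the other way, with -0.31 in the shortest and 0.33 in the longest, while that over WT replicate 2 stayed between -0.021 and 0.030. The 2 TKO libraries differed by at most 0.005 in any group. By GC content, from the lowest to the highest of 6 groups, the median log2 ratio of TKO over WT replicate 2 ran between -0.13 and 0.16, and WT replicate 1 over WT replicate 2 between -0.13 and 0.19. The edgeR calls defined next moved with length: of the shortest group 28 genes were called higher and 200 lower in TKO, and of the longest 184 higher and 79 lower. With a per-library offset for transcript length and GC content, chosen after this pattern was seen, those counts were 132 and 222 in the shortest group, and 265 and 192 in the longest.

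**Figure D1:**
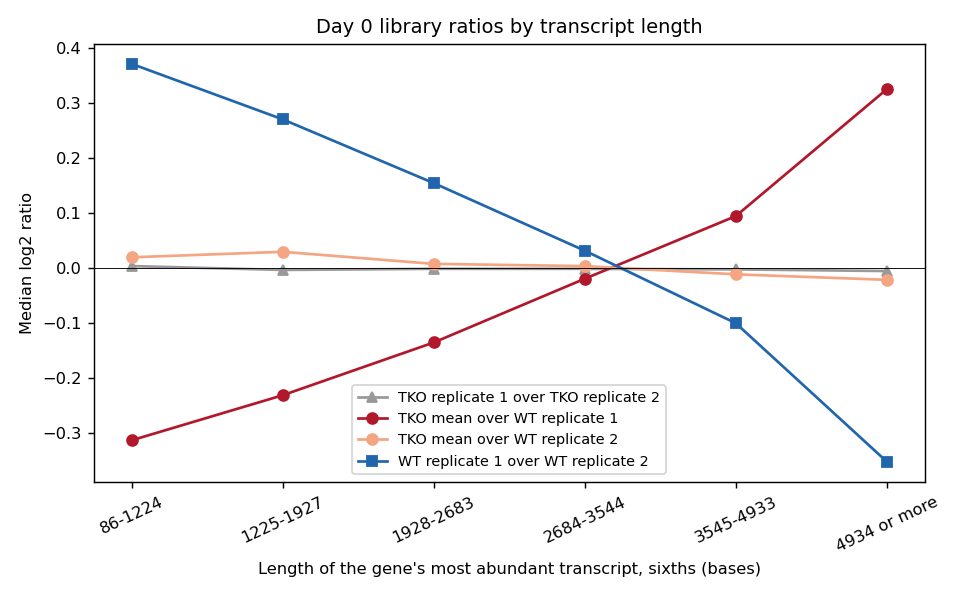
Median log2 ratio between day 0 libraries (vertical axis) in 6 groups of genes by the length in bases of their most abundant transcript (horizontal axis). WT replicate 1 over WT replicate 2 runs between 0.37 and -0.35 across the groups and TKO over WT replicate 1 runs the opposite way, while TKO over WT replicate 2 and the ratio of the TKO replicates stay within 0.030 of 0.

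Of 18489 genes tested, 835 were higher (4.52%) and 1508 lower (8.16%) in TKO than in WT at an edgeR quasi-likelihood adjusted p under 0.05 (Benjamini-Hochberg), in a fit of all 16 libraries that share one estimate of the spread. With the length and GC offset 1475 were higher (7.98%) and 1650 lower (8.92%), so that the share of calls that were rises was 35.6% in the fit without the offset and 47.2% with it. In a fit of only the 4 day 0 libraries 110 were higher (0.702%) and 249 lower (1.59%), together 2.29% of the 15676 genes that fit tested. Both fits called 95 genes higher (0.514%) and 243 lower (1.31%), and these are called here in both fits. Every gene called in the 16-library fit had both TKO libraries on one side of both WT libraries. That separation held for 23.9% of all tested genes upward and 29.6% downward. The called genes differed from each WT replicate alone by over 1.5-fold in 213 of the 835 rises and 541 of the 1508 falls, and by over 2-fold in 47 and 182.

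Leaving out 1 day 0 library moved these counts. Without TKO replicate 1 there were 226 rises and 474 falls, without TKO replicate 2 there were 218 and 469, without WT replicate 1 there were 550 (2.87%) and 1019 (5.32%), and without WT replicate 2 there were 1919 and 2375. In all 4 of these fits 164 genes stayed called higher (0.887% of those tested) and 364 called lower (1.97%). For each group of genes below, the number that stayed called whichever library was left out stands beside the number called. A fit without 1 library leaves 1 in its day 0 group, which then adds nothing to the estimate of the spread. Without either WT library, the spread of WT at day 0 is therefore not measured. Counts of called members are to be read against 4.52% higher and 8.16% lower over all genes, or 0.514% and 1.31% in both fits. The median log2 fold change over all tested genes was -0.025, with -0.020 against WT replicate 1 and -0.008 against WT replicate 2.

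**Figure D2:**
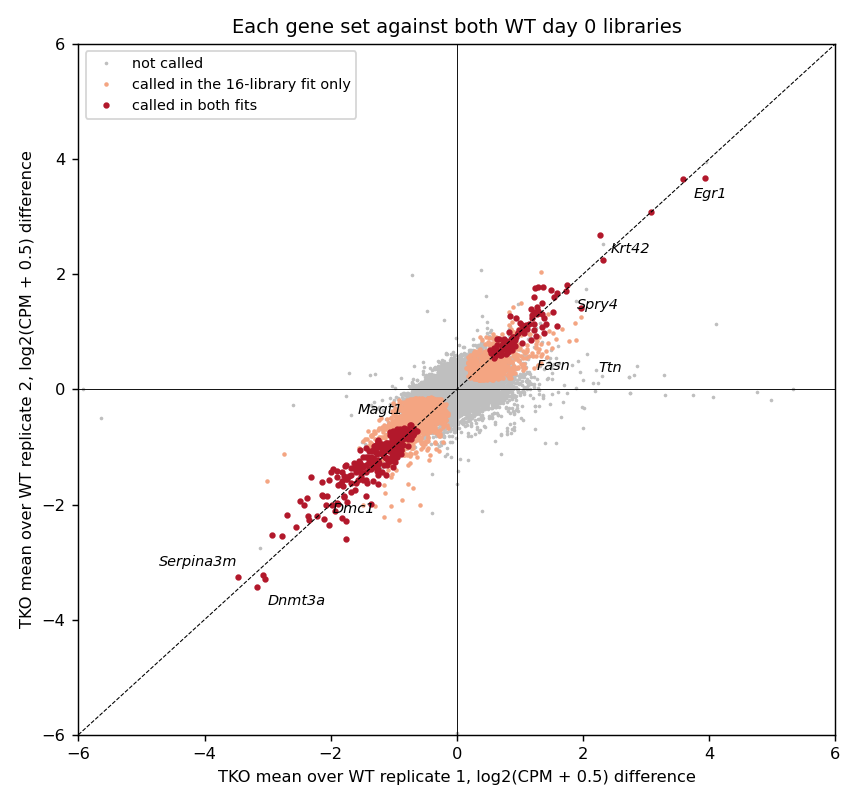
TKO mean against WT replicate 1 (horizontal axis) and against WT replicate 2 (vertical axis), as differences of log2(CPM + 0.5), for 13240 genes of at least 1 CPM in either genotype; the dashed line marks equal differences. Genes called in both fits lie along that line, as Egr1, Krt42 and Dnmt3a do, whereas Ttn and Magt1 lie apart from it because the WT replicates differ.

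Of the genes taken to be targeted, RNA of Dnmt1 and Dnmt3a was called lower in TKO and that of Dnmt3b was not called. Dnmt1, the maintenance methyltransferase (chr9:20907209-20959888, GRCm38), stood at 54.5 and 55.9 CPM in TKO, against 457 and 545 in WT. The log2 fold change was -3.18 ± 0.098 (SE) with an edgeR adjusted p of 9.44e-10, and the libraries of the 2 genotypes did not overlap. Dnmt3a, a de novo methyltransferase (chr12:3806007-3914443), had 2.79 and 2.45 CPM in TKO, against 27.6 and 33.1 in WT, a log2 fold change of -3.53 ± 0.71 with adjusted p = 0.0117. That call was lost when any 1 of 3 libraries was left out, since its edgeR adjusted p was 0.0935 without TKO replicate 1, 0.103 without TKO replicate 2 and 0.0597 without WT replicate 1. Dnmt3b, the other de novo methyltransferase (chr2:153649450-153687730), had 29.3 and 28.9 CPM in TKO, against 27.3 and 29.3 in WT, a log2 fold change of 0.040 ± 0.197 and an adjusted p of 0.941, and its libraries overlapped. A gene's summed counts include reads from outside any deleted part, so a level in TKO near that in WT does not check the label. In bulk RNA, fewer cells of a type and less RNA per cell cannot be told apart, here and in every result that follows.

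Of the 12 genes of the methylation machinery list, 1 was called higher and 3 lower, beside 12.7% called over all genes. All of these were called in both fits, and 2 falls stayed called whichever library was left out. Uhrf1, which recruits Dnmt1 to replicated DNA, had 1040 and 1052 CPM in TKO, against 978 and 1026 in WT (log2 fold change 0.062 ± 0.072, not called). Its relative Uhrf2 fell, with 12.5 and 12.4 CPM in TKO, against 23.5 and 26.3 in WT (log2 fold change -0.997 ± 0.101, edgeR adjusted p = 5.49e-05). Dnmt3l, the catalytically inactive partner of the de novo enzymes, had 4.36 and 4.19 CPM in TKO, against 1.51 and 0.904 in WT (log2 fold change 1.83 ± 0.46). It was called higher at an edgeR adjusted p of 0.0247, which was 0.109 without TKO replicate 1, 0.0967 without TKO replicate 2, 0.127 without WT replicate 1 and 0.165 without WT replicate 2. Of the Tet dioxygenases, which oxidise methylcytosine, none was called. Tet1 had 539 and 549 CPM in TKO, against 250 and 478 in WT and Tet2 152 and 154 CPM in TKO, against 63.3 and 115 in WT, with WT replicate 1 low for both of these long transcripts.

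The cells of both genotypes carried the naive markers. Nanog, a core factor of this state, had 792 and 792 CPM in TKO, against 738 and 727 in WT. The nuclear receptor Esrrb had 753 and 758 CPM in TKO, against 661 and 705 in WT. None of the 8 markers listed for naive cells was called, and their summed level was 4638 and 4635 CPM in TKO, against 4305 and 4356 CPM in WT. Fgf5, the marker of epiblast-like cells, was at 0 in 3 of the 4 libraries and at 0.116 CPM in TKO replicate 2. The 4 epiblast-like markers summed to 40.6 and 40.7 CPM in TKO, against 40.3 and 42.2 CPM in WT. Markers of other cell types are summed in the same way. Such a sum is weighted to the markers with the most counts, so it is set between libraries and not between cell types. Those of primitive endoderm summed to 13.3 and 12.1 CPM in TKO, against 11.1 and 12.4 CPM in WT. Trophoblast markers summed to 6.12 and 6.21 CPM in TKO, against 7.73 and 7.99 CPM in WT. Mesoderm markers summed to 20.2 and 19.5 CPM in TKO, against 18.9 and 18.6 CPM in WT. Fibroblast or feeder markers summed to 6.80 and 5.95 CPM in TKO, against 3.97 and 5.10 CPM in WT, and 5 of the 8 were under 1 CPM in every library. The neural sum was 85.8 and 85.2 CPM in TKO, against 33.3 and 30.2 CPM in WT. Tubb3 alone gave 79.6 and 78.3 CPM of it in TKO, and 27.6 and 23.4 CPM in WT. Of the defining neural markers Sox1 and Pax6 were not called and Neurog2 stayed at or under 0.0285 CPM in every library.

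The largest rises among protein-coding genes called in both fits were led by Egr1, a zinc finger transcription factor and immediate-early gene (chr18:34859823-34864984). It stood at 88.7 and 91.4 CPM in TKO, against 7.06 and 6.73 in WT, with a log2 fold change of 3.71 ± 0.32 and an edgeR adjusted p of 5.49e-05. Krt42, a type I keratin (chr11:100262882-100269871), had 28.3 and 28.03 CPM in TKO, against 5.43 and 3.94 in WT (log2 fold change 2.59 ± 0.18 at an edgeR adjusted p of 2.13e-06). Spry4, a Sprouty inhibitor of receptor tyrosine kinase signalling (chr18:38586247-38601415), had 6.49 and 6.004 CPM in TKO, against 1.54 and 1.56 in WT (log2 fold change 2.01 ± 0.15 with adjusted p = 3.09e-06). In all of these the 2 TKO libraries lay within a narrow band. That they lay above both WT libraries was required by the rule that picked the genes, with the nearest libraries at least 1.5-fold apart.

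Next among the rises came several genes with roles in the embryo or in adhesion. The T-box factor Tbx15 had 22.5 and 21.2 CPM in TKO, against 6.16 and 5.88 in WT (log2 fold change 1.86 ± 0.15). Pramel7, a PRAME-like protein known in mouse embryonic stem cells for promoting loss of the Uhrf1 protein, had 6.58 and 6.96 CPM in TKO, against 1.92 and 1.78 in WT (log2 fold change 1.87 ± 0.31). Its relative Pramel6 had 25.7 and 25.7 CPM in TKO, against 8.52 and 8.06 in WT (log2 fold change 1.63 ± 0.19). Cttnbp2, a cortactin-binding protein, had 88.3 and 86.1 CPM in TKO, against 21.98 and 32.6 in WT (log2 fold change 1.68 ± 0.24), the WT replicates being apart but both low. Gja1, the gap junction protein connexin 43, had 31.99 and 30.5 CPM in TKO, against 12.6 and 11.3 in WT (log2 fold change 1.39 ± 0.12). Ephb1, an ephrin receptor, had 5.98 and 7.22 CPM in TKO, against 2.54 and 2.31 in WT (log2 fold change 1.44 ± 0.24). Ddr2, a collagen receptor kinase, had 48.6 and 48.5 CPM in TKO, against 15.9 and 22.3 in WT (log2 fold change 1.34 ± 0.19). All of these calls stood whichever library was left out. The 3 other rises with such calls were Prr5l, a binding partner of mTORC2, at 1.53 ± 0.19, the glycosyltransferase B3gnt3 at 1.35 ± 0.23 and the dynein assembly factor Dyx1c1 at 1.57 ± 0.28 on the log2 scale. For 2 further genes 1 library decided the call. Tubb3, a beta-tubulin typical of neurons, had 79.6 and 78.3 CPM in TKO, against 27.6 and 23.4 in WT (log2 fold change 1.63 ± 0.31), with an adjusted p of 0.00741 that was 0.0576 without WT replicate 1. Fgf10, a fibroblast growth factor, had 14.8 and 13.4 CPM in TKO, against 5.08 and 5.65 in WT (log2 fold change 1.39 ± 0.28), with 0.00689 that was 0.0623 without TKO replicate 1.

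The largest falls reached further than the largest rises. Serpina3m, a serine protease inhibitor (chr12:104338486-104394257), had 0.285 and 0.144 CPM in TKO, against 7.41 and 6.33 in WT (log2 fold change -4.98 ± 0.53, edgeR adjusted p = 0.000117). It lies in a mouse cluster of near-identical copies between which counts can be split. Gng2, a G protein gamma subunit (chr14:19872559-19977627), had 4.81 and 4.82 CPM in TKO, against 44.01 and 48.96 in WT (log2 fold change -3.27 ± 0.13 with adjusted p = 1.1e-08). Fabp5, a fatty acid-binding protein (chr3:10012548-10016607), had 2.51 and 3.15 CPM in TKO, against 21.03 and 14.6 in WT (log2 fold change -2.66 ± 0.17). The tetraspanin Tspan2 had 1.28 and 1.18 CPM in TKO, against 7.54 and 7.49 in WT (log2 fold change -2.61 ± 0.22). Cmc1, a mitochondrial protein of cytochrome oxidase assembly, had 1.31 and 1.501 CPM in TKO, against 10.2 and 6.78 in WT (log2 fold change -2.59 ± 0.21). In each of these genes both WT libraries stood above both TKO libraries, as the rule that picked them required.

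The remaining large falls included enzymes, receptors and kinases. Aass, an enzyme of lysine breakdown, had 2.68 and 2.54 CPM in TKO, against 15.3 and 14.5 in WT (log2 fold change -2.51 ± 0.196). Aox3, an aldehyde oxidase, had 1.91 and 1.53 CPM in TKO, against 7.92 and 9.14 in WT (log2 fold change -2.31 ± 0.28). The adhesion receptor Adgrg6 had 3.99 and 4.01 CPM in TKO, against 17.9 and 22.5 in WT (log2 fold change -2.34 ± 0.198). Hunk, a kinase of the AMPK-related family, had 11.9 and 12.7 CPM in TKO, against 54.2 and 60.5 in WT (log2 fold change -2.22 ± 0.092 with adjusted p = 1.22e-08), among the lowest adjusted p of any gene. Prnp, the prion protein, had 2.82 and 3.23 CPM in TKO, against 13.3 and 13.7 in WT (log2 fold change -2.16 ± 0.11). The secreted follistatin-like Fstl1 had 4.27 and 4.88 CPM in TKO, against 17.1 and 17.99 in WT (log2 fold change -1.94 ± 0.11). The integrin subunit Itgb5 had 25.8 and 26.3 CPM in TKO, against 76.3 and 66.3 in WT (log2 fold change -1.46 ± 0.096). These 3 also had low adjusted p, of 1.27e-07, 2.89e-07 and 1.45e-06. Atxn1l, an ataxin-1-like protein, had 3.22 and 3.72 CPM in TKO, against 12.9 and 18.9 in WT (log2 fold change -2.196 ± 0.18). The X-linked multicopy ferritin gene Fthl17c had 1.79 and 1.41 CPM in TKO, against 8.79 and 5.903 in WT (log2 fold change -2.19 ± 0.23). Every fall in this and the preceding paragraph stayed called whichever library was left out.

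**Figure D3:**
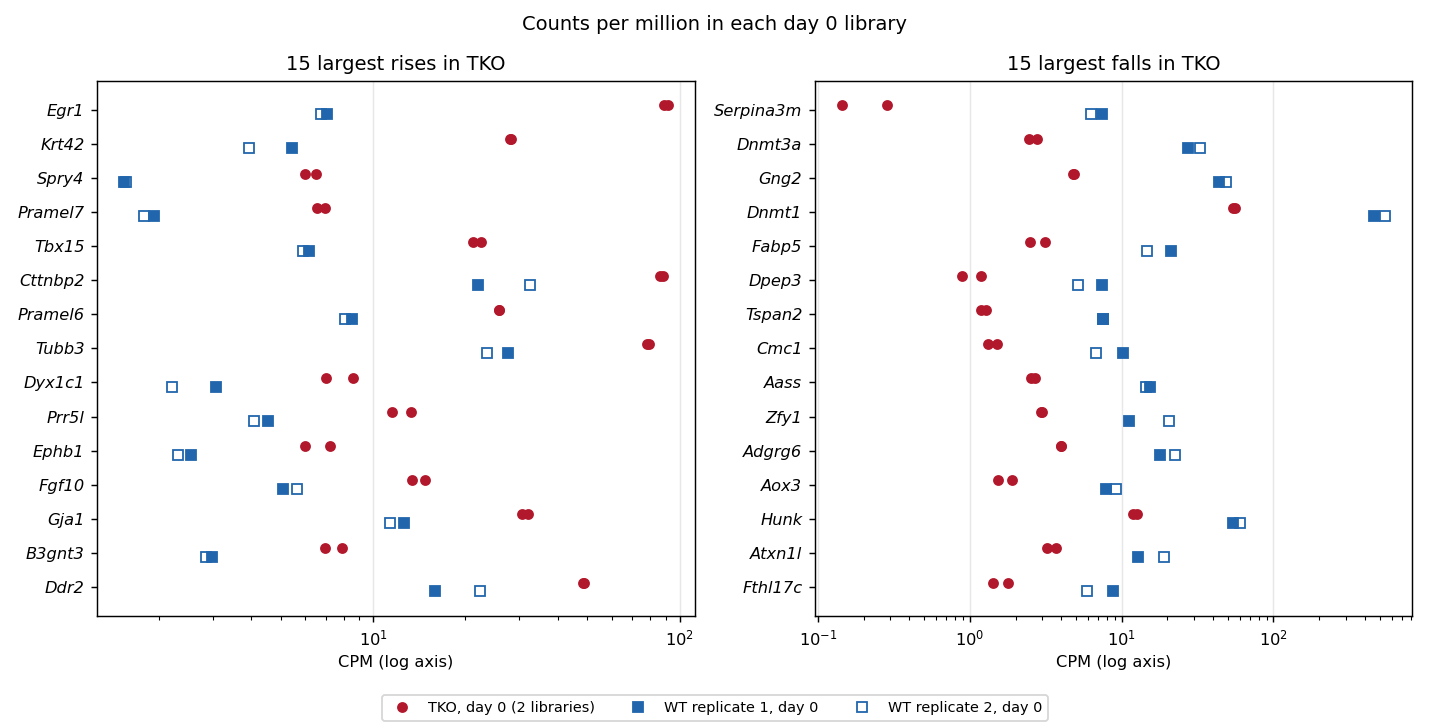
CPM on a log axis in each day 0 library for the 15 largest rises (left) and the 15 largest falls (right) called in both fits, with the TKO libraries as circles and the WT replicates as filled and open squares. In each of the 30 genes both TKO libraries lie outside the 2 WT libraries, as for Egr1 (88.7 and 91.4 CPM in TKO, against 7.06 and 6.73 CPM in WT).

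The FGF-ERK cascade was read by role, from ligand to target. Among the 25 ligands, receptors and transducers tested 5 were called higher and 0 lower, beside 4.52% higher and 8.16% lower over all genes. Of the 5, 0 were called in both fits and 0 stayed called whichever library was left out. The list's median log2 fold change was 0.147. Fgf4, the ligand that embryonic stem cells make, had 130.4 and 130.4 CPM in TKO, against 141 and 126 in WT (log2 fold change -0.032 ± 0.13, not called). Fgfr1, their main FGF receptor, was called higher, with 131 and 130 CPM in TKO, against 104 and 105 in WT (log2 fold change 0.33 ± 0.073). Its edgeR adjusted p was 0.0117, but 0.0801 without TKO replicate 1 and 0.0703 without TKO replicate 2. Mapk3, a kinase at the end of the cascade, had 54.9 and 58.8 CPM in TKO, against 66.9 and 58.2 in WT and was not called. The largest difference of a called member was that of Fgfr3, another receptor, with 0.512 and 0.953 CPM in TKO, against 0.243 and 0.377 in WT (log2 fold change 1.22 ± 0.37). Its adjusted p was 0.0469, but 0.4 without TKO replicate 2 and 0.232 without WT replicate 1.

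Of 20 immediate-early genes 7 were called higher and 2 lower, beside 4.52% higher and 8.16% lower over all genes, 3 and 0 of them in both fits, and 2 rises and 1 fall stayed called whichever library was left out. The list's median was 0.123, or 0.006 against WT replicate 1 and 0.266 against WT replicate 2, and 0.406 in the fit without WT replicate 1. Egr1 is given above. Srf, the serum response factor that binds CArG boxes in many genes of this class, had 32.1 and 31.3 CPM in TKO, against 19.6 and 20.7 in WT (log2 fold change 0.66 ± 0.092, edgeR adjusted p = 0.000688). Fos, a subunit of the AP-1 transcription factor, had 24.7 and 24.4 CPM in TKO, against 14.5 and 14.1 in WT (log2 fold change 0.78 ± 0.19). It was called at an edgeR adjusted p of 0.018, but the adjusted p was 0.0967 without TKO replicate 1, 0.0897 without TKO replicate 2, 0.0935 without WT replicate 1 and 0.056 without WT replicate 2. Ier5 fell, with 2.19 and 2.97 CPM in TKO, against 6.06 and 5.53 in WT (log2 fold change -1.16 ± 0.17 with adjusted p = 0.000921; in the fit of only the 4 day 0 libraries 0.0607). Klf10 had 70.6 and 69.5 CPM in TKO, against 95.2 and 96.6 in WT (log2 fold change -0.45 ± 0.11), called lower at an edgeR adjusted p of 0.0169, which was 0.116 without TKO replicate 1 and 0.137 without TKO replicate 2. Dusp1, a phosphatase of MAP kinases, stood at 47.3 and 49.96 CPM in TKO, against 54.96 and 49.2 in WT and was not called. Ier2 stood at 96.04 and 98.1 CPM in TKO, against 104 and 73.5 in WT and was not called. 

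Of 18 feedback regulators and late targets of ERK 3 were called higher and 3 lower, beside 4.52% higher and 8.16% lower over all genes. Both fits called 2 and 0 of them, and 2 rises and 0 falls stayed called whichever library was left out (median 0.147). The rises in both fits were Spry4, above, and Etv4, a PEA3-family Ets factor, with 65.2 and 64.9 CPM in TKO, against 28.7 and 24.3 in WT (log2 fold change 1.296 ± 0.098, edgeR adjusted p = 4.32e-06). Its close relative Etv5 had 371 and 370.2 CPM in TKO, against 364 and 393 in WT (log2 fold change -0.030 ± 0.102). The ERK phosphatase Dusp6, often used as a readout of the pathway, had 9.11 and 8.86 CPM in TKO, against 8.57 and 8.52 in WT (log2 fold change 0.073 ± 0.11). Spry2 had 54.3 and 52.3 CPM in TKO, against 46.7 and 44.7 in WT. Dusp5, another ERK phosphatase, was called lower with 1.82 and 1.39 CPM in TKO, against 3.49 and 2.74 in WT (log2 fold change -0.95 ± 0.196 with adjusted p = 0.00717), but 0.101 without TKO replicate 2 and 0.0512 without WT replicate 1. Mcl1, an anti-apoptotic protein, had 227 and 225 CPM in TKO, against 299 and 266 in WT (log2 fold change -0.32 ± 0.083). It was called lower at an edgeR adjusted p of 0.0224, which was 0.139 without TKO replicate 1, 0.157 without TKO replicate 2 and 0.109 without WT replicate 1. Spry4 and Etv4 were called in both fits and whichever library was left out, and Etv5 and Dusp6 in none of these fits.

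**Figure D4:**
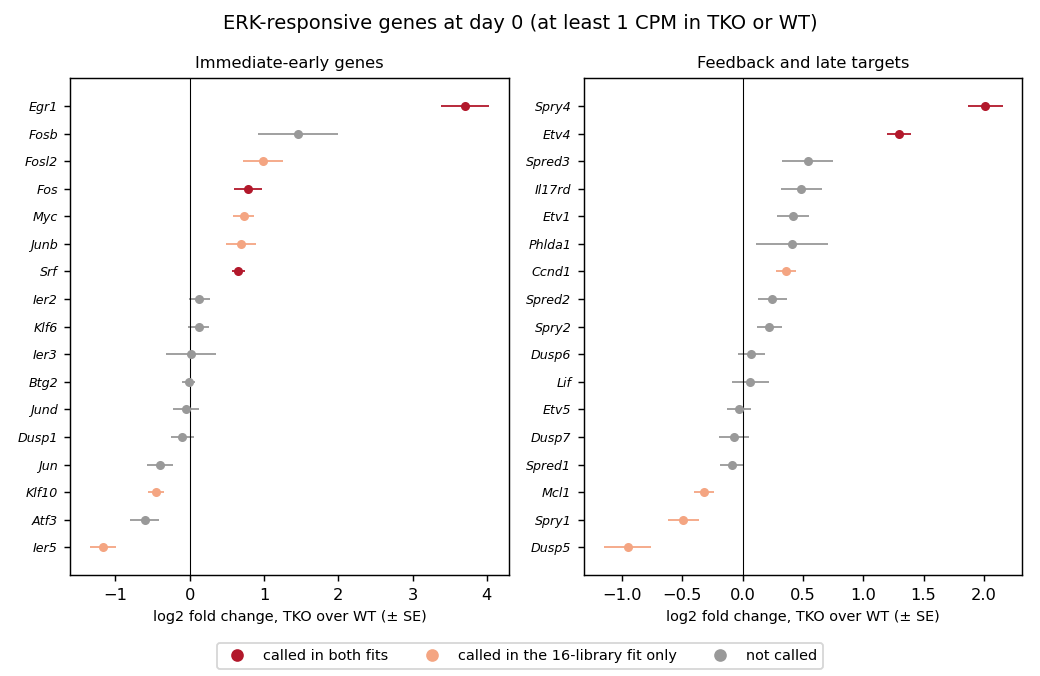
log2 fold change of TKO over WT at day 0 with its SE for ERK-responsive genes of at least 1 CPM in either genotype, in panels for immediate-early genes and for feedback regulators and late targets. The axes differ between panels. Egr1 at 3.71, and Spry4 at 2.01 with Etv4 at 1.296, lie to the right of the other members of their panels.

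The promoter of Srf is shown because that gene was called in both fits and its window holds the letters that its own protein binds. The window runs 250 bases before to 50 bases after the start site (RefSeq, GRCm38.p6), 5′ to 3′ on the gene's strand, with CArG boxes and an Ets motif (CCGGAAG) in capitals. CArG boxes stood in 1.54% and CCGGAAG in 9.08% of the 27025 promoter windows of the same length in the RefSeq table, searched on both strands.
Srf (chr17:46556113-46556412, minus strand): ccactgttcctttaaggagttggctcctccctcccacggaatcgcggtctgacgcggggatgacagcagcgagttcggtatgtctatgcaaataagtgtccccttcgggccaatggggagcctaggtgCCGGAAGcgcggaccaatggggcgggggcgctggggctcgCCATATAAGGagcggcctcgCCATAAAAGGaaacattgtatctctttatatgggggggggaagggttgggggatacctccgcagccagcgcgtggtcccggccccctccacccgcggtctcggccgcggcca
The capitals mark, in order, the Ets motif and 2 CArG boxes. Of the 20 immediate-early genes 14 had a window, and 1 of these windows held a CArG box. Of the 18 feedback regulators and late targets 13 had a window, and 1 of these did. Genes without a window and boxes further from the start site were not counted, and windows of Egr1 and Spry4 are not reported here. The window of Dusp5, called lower, held 2 CArG boxes, and those of Fos and Junb, called higher, held none. A link between these letters and the calls was not tested.

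Of 25 naive pluripotency factors 1 was called higher and 0 lower, beside 12.7% called over all genes, with a median log2 fold change of 0.004. The called gene was Khdc3, a subunit of the maternal subcortical complex that naive cells express, with 159 and 157 CPM in TKO, against 87.99 and 64.8 in WT (log2 fold change 1.05 ± 0.15, edgeR adjusted p = 0.001). It was called in both fits and whichever library was left out. Zfp42, a zinc finger marker of naive cells, had 518 and 522 CPM in TKO, against 489.7 and 445 in WT. Klf4 had 214 and 215 CPM in TKO, against 222 and 225 in WT. Tfcp2l1 had 1227 and 1205 CPM in TKO, against 789 and 1168 in WT (log2 fold change 0.31 ± 0.17), so that its TKO level met that of WT replicate 2 and stood above WT replicate 1 only. Without WT replicate 2 Tfcp2l1 was called, at an adjusted p of 0.0112.

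Of 11 core pluripotency genes 2 were called higher and 0 lower, beside 12.7% called over all genes, and both stayed called whichever library was left out. Lin28a, which binds let-7 precursors and keeps them from being processed (chr4:134003330-134018841), had 58.3 and 58.5 CPM in TKO, against 27.7 and 29.2 in WT (log2 fold change 1.04 ± 0.080, edgeR adjusted p = 5.38e-06), in both fits. Sall4, a zinc finger factor, had 177 and 175 CPM in TKO, against 131 and 137 in WT (log2 fold change 0.397 ± 0.077 with adjusted p = 0.00502), in the 16-library fit only. Pou5f1, at 867 and 877 CPM in TKO, against 1094 and 803 in WT, and Sox2, at 211 and 208 CPM in TKO, against 258 and 231 in WT, were not called. Lin28b, the paralogue of Lin28a, had 3.56 and 3.26 CPM in TKO, against 3.89 and 4.295 in WT and was not called.

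Of 21 formative and primed epiblast genes 1 was called higher and 3 lower, beside 12.7% called over all genes. Both fits called 0 and 1 of them, and 2 falls stayed called whichever library was left out. Grhl2, an epithelial factor of the formative epiblast, had 4.07 and 3.72 CPM in TKO, against 8.16 and 7.86 in WT (log2 fold change -1.04 ± 0.13, edgeR adjusted p = 0.000314). Lef1, a nuclear partner of beta-catenin, had 2.42 and 1.96 CPM in TKO, against 4.84 and 4.92 in WT (log2 fold change -1.15 ± 0.13 with adjusted p = 0.000119, and 0.0501 in the fit of only the 4 day 0 libraries). Foxd3 was called higher, with 2.59 and 3.03 CPM in TKO, against 1.51 and 1.21 in WT (log2 fold change 1.05 ± 0.21), but 0.0592 without TKO replicate 2. Otx2, which opens the formative programme, had 10.99 and 11.3 CPM in TKO, against 12.5 and 12.8 in WT (log2 fold change -0.18 ± 0.12), with both TKO libraries just below both WT libraries and no call.

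Calls in the other signalling lists are read against the 12.7% of all genes that were called. Of 26 Wnt and beta-catenin genes 1 was called higher and 3 lower, 0 and 1 in both fits, and 2 falls stayed called whichever library was left out. Beside Lef1, above, Sfrp2, a secreted Wnt antagonist, had 0.854 and 0.577 CPM in TKO, against 4.596 and 4.37 in WT (log2 fold change -2.64 ± 0.18, edgeR adjusted p = 2.45e-06). Axin2, a common readout of the pathway, had 101 and 103 CPM in TKO, against 87.1 and 104 in WT and was not called. Of 16 genes of the LIF pathway 2 were called higher, 0 lower and 0 in both fits or whichever library was left out. The receptor Il6ra had 36.5 and 38.2 CPM in TKO, against 25.7 and 29.1 in WT, its adjusted p being 0.122 without TKO replicate 1, 0.186 without TKO replicate 2 and 0.163 without WT replicate 1. Junb, an AP-1 subunit, had 17.02 and 16.1 CPM in TKO, against 11.9 and 8.62 in WT, its adjusted p being 0.178 without TKO replicate 1, 0.13 without TKO replicate 2 and 0.144 without WT replicate 2. Socs3, a Stat3 target, had 77.1 and 80.4 CPM in TKO, against 86.6 and 74.8 in WT and was not called.

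Of 20 Nodal, activin and BMP genes 0 were called higher and 2 lower, with a median log2 fold change of 0.157. The fit of only the 4 day 0 libraries tested 18 of them and called 2 higher and 1 lower, beside 0.702% and 1.59% of all genes in that fit. Of the 2 falls 1 was called in both fits and whichever library was left out. That was Bmp7, a BMP ligand (chr2:172868012-172940321), with 12.04 and 12.96 CPM in TKO, against 41.2 and 39.5 in WT (log2 fold change -1.69 ± 0.18, edgeR adjusted p = 8.21e-05). Its libraries stood about 3-fold apart, and the BMP ligand of naive cells Bmp4 had 9.59 and 10.3 CPM in TKO, against 7.596 and 7.59 in WT and was not called. Id2, a target of BMP signalling, was called lower with 3.81 and 3.95 CPM in TKO, against 8.41 and 6.38 in WT (log2 fold change -0.93 ± 0.25). Its adjusted p of 0.0276 was 0.166 without TKO replicate 1, 0.146 without TKO replicate 2 and 0.177 without WT replicate 1. Id3, another target, had 15.7 and 16.7 CPM in TKO, against 7.98 and 5.45 in WT (log2 fold change 1.27 ± 0.56 with adjusted p = 0.173, not called), with both TKO libraries above both WT libraries.

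Genes of meiosis, which pair, recombine and hold homologous chromosomes in germ cells, were called lower more often than higher. Of 35 meiosis genes 18 were called lower and 0 higher, beside 8.16% lower and 4.52% higher over all genes. Both fits called 5 of them lower, 7 stayed called whichever library was left out, 17 were called lower and 2 higher with the length and GC offset, and 13 lower and 0 higher without WT replicate 1. The median log2 fold change was -0.743, with -0.502 against WT replicate 1, -0.555 against WT replicate 2 and -0.585 with the offset. The 7 that stayed called were Dmc1, Msh5, Smc1b, Meiob, Sycp3, Dpep3 and 4930447C04Rik.

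Dmc1, the meiotic recombinase that pairs homologues (chr15:79561497-79605109), had 0.399 and 0.2598 CPM in TKO, against 3.14 and 2.46 in WT (log2 fold change -3.07 ± 0.26, edgeR adjusted p = 1.04e-05). Msh5, which stabilises crossover intermediates, had 1.85 and 1.76 CPM in TKO, against 4.03 and 4.02 in WT (log2 fold change -1.16 ± 0.19). Meiob, a single-strand DNA-binding partner in recombination, had 0.0285 and 0 CPM in TKO, against 0.676 and 0.879 in WT, which is 1 count in all in TKO. Levels of these genes were low in both genotypes, and the WT libraries stood above both TKO libraries in each.

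Smc1b, the meiotic cohesin subunit, had 10.7 and 10.8 CPM in TKO, against 33.95 and 37.4 in WT (log2 fold change -1.73 ± 0.26, edgeR adjusted p = 0.00118). Sycp3, a protein of the chromosome axis, had 10.5 and 9.61 CPM in TKO, against 20.2 and 15.9 in WT (log2 fold change -0.84 ± 0.15 with adjusted p = 0.00295, and 0.0681 in the fit of only the 4 day 0 libraries). Dpep3, a testis dipeptidase, had 0.882 and 1.18 CPM in TKO, against 7.46 and 5.17 in WT (log2 fold change -2.61 ± 0.31). Not all members were lower. Sycp1, of the transverse filament, had 9.42 and 9.79 CPM in TKO, against 4.87 and 14.6 in WT, so that the WT replicates lay on both sides of TKO. Prdm9, which marks recombination hotspots, had 3.73 and 4.21 CPM in TKO, against 2.89 and 3.14 in WT and was not called. Stra8, the gatekeeper of meiotic entry, had 14.9 and 14.5 CPM in TKO, against 32.8 and 23.7 in WT and was not called either.

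Of 23 piRNA pathway genes 5 were called lower and 0 higher, beside 8.16% lower and 4.52% higher over all genes (median -0.239). Of the 5, 1 was called in both fits and whichever library was left out. That gene was Rnf17, a Tudor domain protein of germ cell granules, with 78.4 and 75.2 CPM in TKO, against 157 and 171 in WT (log2 fold change -1.095 ± 0.17, edgeR adjusted p = 0.00146). The other 4 calls did not stand without every library. Gtsf1, a PIWI partner, had 4.84 and 4.21 CPM in TKO, against 11.9 and 7.96 in WT, with an adjusted p of 0.0131 that was 0.0782 without TKO replicate 1, 0.131 without TKO replicate 2 and 0.0958 without WT replicate 1. Piwil2, a PIWI protein, had 5.21 and 5.398 CPM in TKO, against 9.06 and 8.39 in WT, with an edgeR adjusted p of 0.0205 that was 0.145 without TKO replicate 1, 0.121 without TKO replicate 2 and 0.0755 without WT replicate 1. The adjusted p of Piwil4, another PIWI protein, was 0.0322, and 0.167 without TKO replicate 1, 0.179 without TKO replicate 2, 0.0798 without WT replicate 1 and 0.0524 without WT replicate 2. That of the helicase Tdrd9 was 0.0428, and 0.314 without TKO replicate 1, 0.0842 without TKO replicate 2, 0.166 without WT replicate 1 and 0.0565 without WT replicate 2. Ddx4, the Vasa helicase (5.52 and 5.95 CPM in TKO, against 6.49 and 6.53 in WT), and Asz1, a piRNA factor of mitochondria-associated granules (2.88 and 2.66 CPM in TKO, against 2.78 and 3.19 in WT), were not called.

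Of 42 germ cell genes 10 were called lower and 3 higher, beside 8.16% lower and 4.52% higher over all genes. Both fits called 5 and 2 of them, and 2 falls and 1 rise stayed called whichever library was left out (median -0.473). Dazl, an RNA-binding protein of germ cell identity (chr17:50279395-50293636), had 91.1 and 95.5 CPM in TKO, against 190 and 200.4 in WT (log2 fold change -1.07 ± 0.16, edgeR adjusted p = 0.0009). Stk31, a Tudor domain kinase of testis (chr6:49395604-49469501), had 5.72 and 6.61 CPM in TKO, against 14.03 and 12.3 in WT (log2 fold change -1.09 ± 0.17 with adjusted p = 0.00125). Both genes were about 2-fold lower in TKO with no overlap of libraries. The rises were Pramel7, above, and 2 homeobox genes. Rhox9 had 3.05 and 3.32 CPM in TKO, against 1.35 and 1.31 in WT, with an adjusted p of 0.0153 that was 0.074 without TKO replicate 1, 0.104 without TKO replicate 2 and 0.0631 without WT replicate 1. Rhox6 had 2.93 and 3.35 CPM in TKO, against 1.54 and 1.18 in WT, with an edgeR adjusted p of 0.0172 that was 0.0723 without TKO replicate 1, 0.121 without TKO replicate 2 and 0.0531 without WT replicate 2. Factors of primordial germ cell specification were not called: Prdm1 had 15.3 and 17.2 CPM in TKO, against 15.7 and 17.6 in WT. Tfap2c had 70.4 and 71.7 CPM in TKO, against 57.6 and 54.4 in WT.

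The promoters of Dmc1, Sycp3 and Stk31 are shown as called members of these lists whose windows hold an E2F6 motif or an E-box, and that of Ddx4 as a member that was not called. The windows of Dazl, Dpep3, Gtsf1, Xlr3c and Xlr5c, called lower, and of Pramel7, called higher, held neither and are not shown. All run 250 bases before to 50 bases after the start site (RefSeq, GRCm38.p6), 5′ to 3′ on the gene's strand, with the letters of an E2F6 motif (TCCCGC, or GCGGGA on the other strand) and of an E-box (CACGTG) in capitals.
Dmc1 (chr15:79605060-79605359, minus strand): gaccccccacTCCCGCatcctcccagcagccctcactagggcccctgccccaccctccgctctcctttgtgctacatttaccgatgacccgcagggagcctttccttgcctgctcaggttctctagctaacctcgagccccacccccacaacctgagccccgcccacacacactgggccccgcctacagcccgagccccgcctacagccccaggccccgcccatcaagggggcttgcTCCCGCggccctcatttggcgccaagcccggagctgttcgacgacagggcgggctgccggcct
Sycp3 (chr10:88459337-88459636, plus strand): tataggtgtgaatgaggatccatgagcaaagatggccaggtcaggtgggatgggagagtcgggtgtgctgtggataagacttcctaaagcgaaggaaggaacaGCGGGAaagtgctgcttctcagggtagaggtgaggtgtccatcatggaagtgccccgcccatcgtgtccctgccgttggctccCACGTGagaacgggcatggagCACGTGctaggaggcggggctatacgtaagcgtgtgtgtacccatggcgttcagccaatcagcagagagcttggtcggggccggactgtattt
Stk31 (chr6:49395354-49395653, plus strand): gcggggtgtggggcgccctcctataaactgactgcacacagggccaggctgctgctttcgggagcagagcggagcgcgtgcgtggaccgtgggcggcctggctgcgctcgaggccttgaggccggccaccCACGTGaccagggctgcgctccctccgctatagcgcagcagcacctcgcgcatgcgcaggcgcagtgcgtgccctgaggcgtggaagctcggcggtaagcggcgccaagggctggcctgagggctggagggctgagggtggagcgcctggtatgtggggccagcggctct
Ddx4 (chr13:112652261-112652560, minus strand): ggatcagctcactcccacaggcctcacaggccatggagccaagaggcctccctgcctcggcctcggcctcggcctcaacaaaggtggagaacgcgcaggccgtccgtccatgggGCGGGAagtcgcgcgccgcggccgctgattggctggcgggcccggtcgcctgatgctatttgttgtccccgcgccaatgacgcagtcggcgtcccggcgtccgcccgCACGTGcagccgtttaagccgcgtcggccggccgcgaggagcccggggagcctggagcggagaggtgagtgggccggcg
The windows of Dmc1 and Sycp3 held 2 and 1 E2F6 motifs, those of Sycp3 and Stk31 held 2 and 1 E-boxes, and that of Ddx4 held 1 of each. Of the 35 meiosis genes 30 had a window, and 19 of these held TCCCGC (63.3%) and 7 held CACGTG (23.3%), beside 32.4% and 9.31% of the 13162 tested genes with a window and 19.8% and 7.09% of the 27025 windows of the table. Only 71.2% of the 18489 genes tested had a window, too few for a check of called against uncalled genes over the whole table. Over the meiosis, piRNA pathway and germ cell lists together, TCCCGC stood in 12 of 26 windows of genes called lower (46.2%) and in 23 of 53 windows of the other members (43.4%). CACGTG stood in 9 of those 26 (34.6%) and 13 of those 53 (24.5%). A window with the letters is not a bound site, and Ddx4 shows that members with and without a call held them.

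Most genes of the Xlr family were called lower as well. The copies of this X-linked family, and of the Rhox, Mage and Pramel families, are near-identical and the estimated counts can be split between them, so values of single members are uncertain. Of 10 members of the Xlr family, nuclear proteins related to Sycp3, 7 were called lower and 0 higher, beside 8.16% lower and 4.52% higher over all genes. Both fits called 3 of them, and 4 stayed called whichever library was left out. The median was -0.642, with -0.784 against WT replicate 1, -0.460 against WT replicate 2 and -0.449 with the length and GC offset, under which 6 were called lower. Xlr5c had 13.8 and 14.3 CPM in TKO, against 53.6 and 41.04 in WT (log2 fold change -1.75 ± 0.17, edgeR adjusted p = 3.81e-05). Xlr3c had 48.8 and 48.8 CPM in TKO, against 109 and 96.3 in WT (log2 fold change -1.07 ± 0.16 with adjusted p = 0.00102). Xlr3a, at 72.6 and 70.7 CPM in TKO, against 87.99 and 80.8 in WT, and Xlr4b, at 34.8 and 35.7 CPM in TKO, against 47.3 and 41.4 in WT, were not called.

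Counts of calls in this paragraph stand beside 4.52% higher and 8.16% lower over all genes. Of 15 tested genes of the Rhox homeobox cluster 2 were called higher and 2 lower, 1 and 1 in both fits and 0 whichever library was left out. Rhox6 and Rhox9, above, were the rises. Rhox4e had 0.655 and 0.5196 CPM in TKO, against 2.22 and 1.98 in WT (log2 fold change -1.83 ± 0.33), called lower but with an adjusted p of 0.0571 without TKO replicate 2. Of 24 Mage and Pramel genes 3 were called higher and 0 lower, and Pramel6 and Pramel7 stayed called whichever library was left out. Maged1, at 229 and 232 CPM in TKO, against 259 and 235 in WT, was not called. Of 22 two-cell-stage genes 0 were called higher and 1 lower, and the Zscan4 genes tested were at or under 0.270 CPM in every library.

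**Figure D5:**
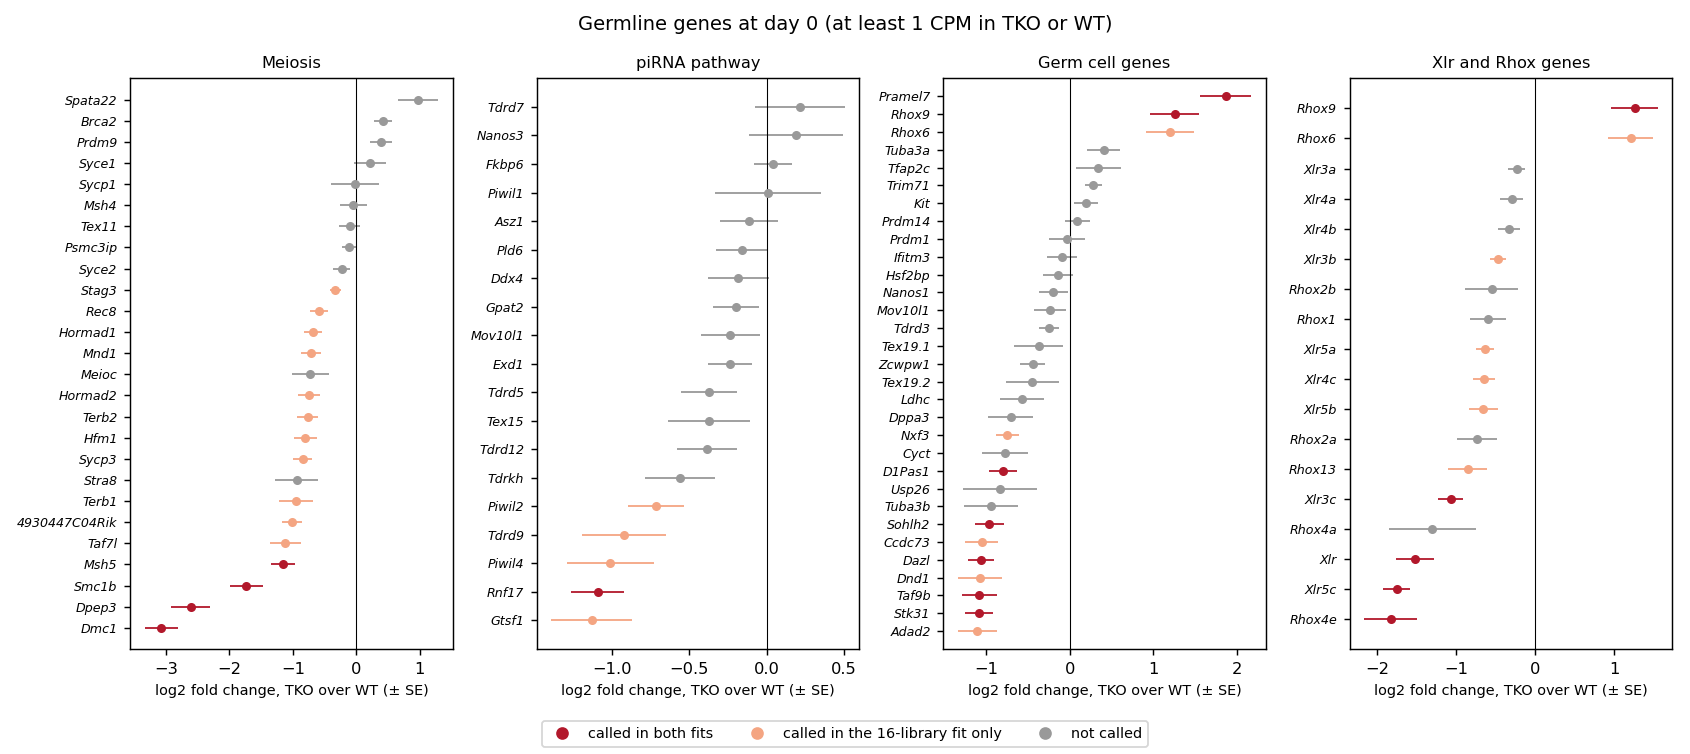
log2 fold change of TKO over WT at day 0 with its SE for germline genes of at least 1 CPM in either genotype, in panels for meiosis, the piRNA pathway, germ cell genes and the Xlr and Rhox families; the axes differ between panels. Most members lie left of 0, down to Dmc1 at -3.07, while Pramel7 at 1.87, Rhox9 at 1.26 and Rhox6 at 1.21 lie to the right.

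Of 46 imprinted genes 4 were called higher and 7 lower, beside 4.52% higher and 8.16% lower over all genes. Both fits called 2 and 2 of them (median -0.002). Those that stayed called whichever library was left out were 2 rises and 2 falls, given here. Gnas, which encodes a G protein alpha subunit, had 35.8 and 36.5 CPM in TKO, against 77.4 and 71.1 in WT (log2 fold change -1.04 ± 0.091, edgeR adjusted p = 1.51e-05). Cd81, a tetraspanin of the Kcnq1 cluster, had 172 and 175 CPM in TKO, against 261 and 229.5 in WT (log2 fold change -0.500 ± 0.084). Dio3, a thyroid hormone deiodinase of the Dlk1 cluster, rose, with 3.05 and 3.38 CPM in TKO, against 1.24 and 1.21 in WT (log2 fold change 1.39 ± 0.25 with adjusted p = 0.00317). Nap1l5 had 2.22 and 2.05 CPM in TKO, against 0.946 and 0.9796 in WT (log2 fold change 1.15 ± 0.19). Snrpn and Peg3, textbook examples of paternal expression, were not called, with 84.4 and 84.4 CPM in TKO, against 77.6 and 62.4 in WT for Snrpn. Peg3 had 83.4 and 83.5 CPM in TKO, against 48.8 and 73.9 in WT, WT replicate 1 being low. Zdbf2, at 20.01 and 30.9 CPM in TKO, against 9.597 and 28.2 in WT, had one of the widest gaps between the WT replicates and was not called.

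Calls among genes of the repressive complexes went both ways, beside 12.7% called over all genes. Of 13 genes of Polycomb repressive complex 2 1 was called higher and 3 lower, 0 of them in both fits or whichever library was left out. The methyltransferase Ezh2 had 330.4 and 317 CPM in TKO, against 249.8 and 222 in WT (log2 fold change 0.46 ± 0.100). It was called at an edgeR adjusted p of 0.0103, but its edgeR adjusted p was 0.077 without TKO replicate 1. Its paralogue Ezh1 had 46.1 and 47.3 CPM in TKO, against 59.8 and 66.4 in WT (log2 fold change -0.44 ± 0.095), called at an edgeR adjusted p of 0.0101, which was 0.113 without TKO replicate 1 and 0.0868 without TKO replicate 2. Suz12 had 409 and 417 CPM in TKO, against 448 and 512 in WT and Eed 75.3 and 71.3 CPM in TKO, against 77.6 and 73.9 in WT, neither called. Of 19 genes of PRC1.6 and other germline repressors 2 were called higher and 0 lower, 0 in both fits and 1 whichever library was left out. That was Tfdp1, the dimer partner of E2f factors, with 245 and 244 CPM in TKO, against 193 and 193 in WT (log2 fold change 0.34 ± 0.060 with adjusted p = 0.00308). E2f6 had 22.8 and 22.2 CPM in TKO, against 22.5 and 20.8 in WT and was not called. Mga had 385 and 379 CPM in TKO, against 207 and 394 in WT and was not called either.

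Of 28 glycolysis and lactate genes 6 were called lower and 0 higher, beside 8.16% lower and 4.52% higher over all genes. With the length and GC offset 7 were called lower and 1 higher. Of the 6, 4 were called in both fits, and 3 stayed called whichever library was left out (median -0.137). Pfkm, the muscle form of phosphofructokinase (chr15:98092589-98132451), had 27.1 and 24.4 CPM in TKO, against 75.99 and 67.3 in WT (log2 fold change -1.48 ± 0.083, edgeR adjusted p = 2.89e-07). Bnip3, a mitophagy receptor induced by hypoxia, had 6.35 and 6.09 CPM in TKO, against 22.8 and 18.6 in WT (log2 fold change -1.74 ± 0.21). The lactate exporter Slc16a3 had 5.81 and 5.72 CPM in TKO, against 11.4 and 11.6 in WT (log2 fold change -0.99 ± 0.13). The other phosphofructokinases were not called. Pfkl had 52.2 and 51.3 CPM in TKO, against 66.3 and 55.5 in WT. Pfkp had 337 and 345 CPM in TKO, against 356 and 454 in WT.

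Of 25 sterol and lipid genes 9 were called higher and 1 lower, beside 4.52% higher and 8.16% lower over all genes. Both fits called 1 and 1 of them, and 3 rises and 1 fall stayed called whichever library was left out. The median was 0.100, with 0.151 against WT replicate 1 and 0.111 against WT replicate 2, and these transcripts were long (median 4028 bases); with the length and GC offset 8 were called higher and 2 lower. Fasn, fatty acid synthase, had 929 and 941 CPM in TKO, against 436 and 595 in WT (log2 fold change 0.86 ± 0.13, and 0.56 with the offset). Hmgcs1, an early enzyme of cholesterol synthesis, had 487 and 487 CPM in TKO, against 507 and 519.6 in WT and was not called. Sqle, a later one, had 169 and 173 CPM in TKO, against 182 and 168 in WT and was not called. The fall was that of Fabp5, above.

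Of 30 genes of oxidative phosphorylation 2 were called lower, 0 higher, and 0 in both fits or whichever library was left out, beside 12.7% called over all genes. Their transcripts were short (median 800 bases), and the median log2 ratio of WT replicate 1 over WT replicate 2 was 0.471. The median fold change of TKO was -0.400 against WT replicate 1 and 0.021 against WT replicate 2, beside a median of -0.213 in the fit. Atp5b, for instance, had 1832 and 1875 CPM in TKO, against 2333 and 1871 in WT. The 19 genes of the extracellular matrix, with a median length of 6536 bases, moved the other way, with 0.393 against WT replicate 1 and 0.033 against WT replicate 2. Of these 1 was called higher and 1 lower, 0 in both fits, beside the same 12.7%. Lama5, a laminin chain, had 243 and 252 CPM in TKO, against 108 and 159.7 in WT, called with an adjusted p that was 0.0506 without TKO replicate 1, 0.0626 without TKO replicate 2 and 0.0649 without WT replicate 1. Col18a1, a basement membrane collagen, fell whichever library was left out, with 36.2 and 39.3 CPM in TKO, against 55.8 and 61.7 in WT.

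Genes of stress programmes were called in both directions, beside 12.7% called over all genes. Of 17 amino acid stress genes 2 were called higher and 3 lower, 0 and 1 in both fits and 0 and 2 whichever library was left out. Phgdh, the entry enzyme of serine synthesis, had 97.03 and 94.4 CPM in TKO, against 201 and 160.2 in WT (log2 fold change -0.92 ± 0.098, edgeR adjusted p = 7.51e-05). Ddit4, an mTORC1 inhibitor, had 85.1 and 84.7 CPM in TKO, against 128 and 116 in WT (log2 fold change -0.52 ± 0.095). Of 10 genes of the unfolded protein response 2 were called higher and 0 lower. Pdia4, a disulphide isomerase, had 313 and 307 CPM in TKO, against 213 and 199 in WT (log2 fold change 0.59 ± 0.078), called in both fits and whichever library was left out. Of 20 p53 targets 2 were called higher and 3 lower, 0 and 1 in both fits and 0 and 2 whichever library was left out. The apoptosis gene Pmaip1 had 4.697 and 3.49 CPM in TKO, against 10.6 and 9.45 in WT (log2 fold change -1.29 ± 0.17). The cell cycle inhibitor Cdkn1a had 222 and 226 CPM in TKO, against 359 and 303 in WT (log2 fold change -0.57 ± 0.089). Mdm2, the ligase of p53, had 149 and 146 CPM in TKO, against 148 and 145 in WT and was not called. Of 27 cell cycle genes 1 was called higher and 1 lower, and with the offset 6 and 1. The rise, cyclin D1 (Ccnd1), had 259.6 and 261 CPM in TKO, against 204 and 202 in WT, with an adjusted p of 0.0812 without TKO replicate 1 and 0.0869 without TKO replicate 2. The fall was that of Cdkn1a. Of 32 genes of interferon response and RNA sensing 0 were called higher and 2 lower. B2m, the light chain of class I molecules, had 7.03 and 6.61 CPM in TKO, against 16.8 and 13.1 in WT (log2 fold change -1.13 ± 0.21), called in both fits and whichever library was left out. Bst2, or tetherin, had 15.9 and 17.3 CPM in TKO, against 33.1 and 22.9 in WT, with an adjusted p of 0.0672 without TKO replicate 1. The RNA sensor Ifih1 had 1.08 and 0.664 CPM in TKO, against 0.324 and 0.427 in WT and was not called.

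The actins Actb and Actg1, whose many processed pseudogenes can share reads, went opposite ways, both called whichever library was left out. Actb had 1801 and 1797 CPM in TKO, against 1237 and 1050 in WT (log2 fold change 0.65 ± 0.103, edgeR adjusted p = 0.00135). Actg1 had 804 and 799.5 CPM in TKO, against 1712 and 1374 in WT (log2 fold change -0.94 ± 0.12 with adjusted p = 0.000362). They belong to a list of 23 with 2 rises and 3 falls, 0 and 1 in both fits. Over all genes 4.52% were called higher and 8.16% lower, as a measure for each list of this paragraph. Of 8 keratins 2 were called higher and 2 lower, with Krt42 the only one to stay called whichever library was left out. Krt18, of simple epithelia, was called lower with 3.16 and 2.74 CPM in TKO, against 6.52 and 5.05 in WT, its adjusted p being 0.0516 without TKO replicate 2. Its partner Krt8 had 22.97 and 24.5 CPM in TKO, against 23.8 and 19.04 in WT and was not called. Of 16 cadherins and genes of epithelial-mesenchymal transition 1 was called lower and 0 higher. That was the epithelial adhesion molecule Epcam, in both fits, with 25.1 and 26.7 CPM in TKO, against 65.01 and 51.5 in WT (log2 fold change -1.17 ± 0.12 with adjusted p = 7.22e-05). E-cadherin, Cdh1, had 1145 and 1142 CPM in TKO, against 1008 and 1117 in WT and was not called.

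Calls in the lineage lists are read against the same 12.7%. Of 16 primitive streak and mesoderm genes 3 were called higher and 0 lower, of which Tbx15, above, and Kdr were called in both fits and whichever library was left out. Kdr, a VEGF receptor, had 3.36 and 3.41 CPM in TKO, against 1.03 and 1.33 in WT (log2 fold change 1.52 ± 0.29, edgeR adjusted p = 0.00477). Eomes, a T-box factor of the streak, had 8.11 and 7.27 CPM in TKO, against 8.14 and 7.81 in WT and was not called. Of 20 endoderm genes 0 were called in either direction in the 16-library fit, while 3 were called higher by DESeq2 and 3 by edgeR without the TKO day 4 libraries; Gata4 had 2.65 and 2.598 CPM in TKO, against 2.33 and 2.91 in WT. Of 15 trophoblast genes 2 were called higher and 3 lower, 1 and 1 in both fits, and Krt42 stayed called whichever library was left out. Cdx2 had 1.31 and 1.299 CPM in TKO, against 0.487 and 0.653 in WT, with an adjusted p of 0.165 without TKO replicate 1, 0.163 without TKO replicate 2 and 0.196 without WT replicate 1. Of 17 neural genes 2 were called higher and 1 lower, 1 and 0 in both fits and 0 whichever library was left out. Of 34 Hox genes 0 were called higher and 1 lower. That was Hoxd8, at 0.769 and 0.548 CPM in TKO, against 1.41 and 1.76 in WT, with an adjusted p of 0.106 without TKO replicate 1, 0.249 without TKO replicate 2, 0.0568 without WT replicate 1 and 0.0971 without WT replicate 2. Of 14 fibroblast and feeder genes 0 were called; Fn1 had 1943 and 1967 CPM in TKO, against 1371 and 2160 in WT, with WT replicates on both sides of TKO.

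Genes of the proximal part of chromosome 6 stood higher in TKO as a block. For 251 genes averaging at least 1 CPM over both genotypes that start below 80 Mb, a boundary chosen after their values were seen, the median log2 fold change was 0.190, with 0.163 against WT replicate 1 and 0.204 against WT replicate 2, and 181 of them (72.1%) were above 0. In the same scale 372 genes of the rest of chromosome 6 had a median of 0.001 and 11842 genes of the other autosomes -0.038. Of the 251 genes 47 were called higher (18.7%) and 11 lower (4.38%), against 5.87% and 10.5% on the other autosomes. When the genome was cut into windows of 10 Mb, 251 windows held at least 10 genes; 8 had a median above 0.1, and these were the 8 windows of chromosome 6 below 80 Mb. With the length and GC offset 18 windows had a median above 0.1, these 8 among them at 0.137 or more, and the highest elsewhere was 0.207. Medians of the same block on days 2, 4 and 7 were 0.228, 0.473 and 0.356. Cttnbp2, Pdia4, Ezh2 and Nap1l5, described above, lie on it, as do Aass and Stk31, which fell.

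Of 472 genes of chromosome X 14 were called higher (2.97%) and 82 lower (17.4%), with a median of -0.120. On the autosomes other than chromosome 6 together these shares were 5.87% and 10.5%. Single autosomes came near chromosome X, with 2.94% higher and 15.2% lower on chromosome 14 and a median of -0.108 on chromosome 3. The X-linked genes include the near-identical Xlr copies. Of 11 genes of chromosome Y 1 was called higher (9.09%) and 6 lower (54.5%), with a median of -0.683. Of the 6 Y-linked genes picked for a list 5 were called lower, beside 8.16% over all genes. Both fits called 3 of them, and 3 stayed called whichever library was left out (median -1.291). Kdm5d, a histone demethylase, had 10.7 and 10.5 CPM in TKO, against 33.1 and 33.7 in WT (log2 fold change -1.65 ± 0.17, edgeR adjusted p = 6.66e-05). Zfy1, a zinc finger protein, had 2.99 and 2.94 CPM in TKO, against 11.2 and 20.4 in WT (log2 fold change -2.41 ± 0.28 with adjusted p = 0.000171). The helicase Ddx3y had 47.02 and 51.1 CPM in TKO, against 75.9 and 111 in WT, called with an adjusted p of 0.146 without TKO replicate 1, 0.104 without TKO replicate 2 and 0.119 without WT replicate 2. The translation factor Eif2s3y had 77.5 and 77.01 CPM in TKO, against 129 and 119 in WT, called with an adjusted p of 0.18 without TKO replicate 1, 0.187 without TKO replicate 2, 0.187 without WT replicate 1 and 0.0749 without WT replicate 2. Uty, at 24.6 and 23.4 CPM in TKO, against 27.01 and 35.5 in WT, was not called.

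The 10 protein-coding genes with the widest gap between the WT replicates were not called in the 16-library fit. WT replicate 1 was low for 9 of them and high for Magt1, a magnesium transporter subunit (18.9 and 18.2 CPM in TKO, against 63.6 and 20.2 in WT). Ttn, the giant muscle protein titin, had 66.3 and 68.6 CPM in TKO, against 15.7 and 43.9 in WT, and its adjusted p was 0.118 with all libraries and 0.0118 without WT replicate 2. Ago1, an Argonaute protein, had 35.3 and 51.3 CPM in TKO, against 15.3 and 51.6 in WT, with the TKO libraries apart as well. Pakap had 10.8 and 9.87 CPM in TKO, against 2.16 and 13.04 in WT, and Zyg11a had 60.5 and 64.4 CPM in TKO, against 24.03 and 66.7 in WT. Glcci1, Lcor and Vmn2r114 likewise had WT replicate 1 lowest of the 4 libraries.

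The difference between genotypes at day 0 was then set against that in differentiation, with other TKO and other WT libraries. For 3388 of 18489 genes (18.3%) the TKO over WT difference at day 0 differed from the mean difference on days 2, 4 and 7 at an edgeR adjusted p under 0.05 for that contrast. In 1083 of these (5.86%) the day 0 difference was the higher and in 2305 (12.5%) the lower. Of the 95 rises called in both fits 22, 34 and 31 were called higher on days 2, 4 and 7, when 7.91%, 17.8% and 23.4% of all genes were called higher, and 5, 9 and 23 were called lower. Of the 243 falls 58, 50 and 71 were called lower on those days, when 5.52%, 11.1% and 21.1% of all genes were, and 16, 78 and 107 were called higher.

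Egr1 was called at day 0 and on none of the later days: its log2 fold change was 3.71 at day 0 and -0.14, -0.41 and -0.13 on days 2, 4 and 7, and day 0 exceeded the mean of those days by 3.93 ± 0.36 (SE; edgeR adjusted p = 2.32e-05). Gnas had -1.04 at day 0 and 0.25, -0.098 and -0.52 on days 2, 4 and 7, and was called lower on day 7 as well. Uhrf2 had -0.997 at day 0 and 0.199, 0.297 and 0.33 later (day 0 minus later -1.27 ± 0.12, edgeR adjusted p = 5.57e-06), and was called higher on days 4 and 7. Dazl and Stk31 took the opposite sign by day 4. Dazl had -1.07 at day 0 and 0.62 and 1.98 on days 2 and 4, and on day 7 it stood at 26.4 and 21.2 CPM in TKO, against 0.0241 and 0 in WT. Stk31 had -1.09 at day 0 and -0.14 and 1.700 on days 2 and 4, and on day 7 it stood at 10.3 and 9.12 CPM in TKO, against 0.0724 and 0.0723 in WT. Dmc1 was lower on all 4 days, with -3.07 at day 0 and -0.82, -1.14 and -1.23 later. Dnmt1 had nearly the same difference throughout, -3.18 at day 0 and -3.07, -3.04 and -3.09 later. Of the Y-linked genes Kdm5d had -1.65 at day 0 and -0.063, 0.79 and 3.66 later, while Ddx3y had -0.93 and -0.82, -0.83 and -0.300.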

How the data were processed

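Polyadenylated RNA was sequenced from stranded libraries, 1 per sample, per the labels' protocols. The authors deposited for each transcript an estimated count, a TPM value and an effective length, made with kallisto on GRCm38 (mm10) per the submitters' processing notes; the kallisto version and the annotation release are not given in the sources used here. TPM and effective length served only the effective-length alternative. Here the estimated counts were summed to 35975 genes through GENCODE vM21, which held 97.8% of the transcripts listed (unmatched transcripts carried 0.946 to 1.051% of the counts and were left out), and rounded to whole numbers. edgeR 4.0.16 in R 4.3.3 tested 18489 genes left by filterByExpr (minimum count 10) in a quasi-likelihood fit of all 8 groups of 2 libraries, with TMM scaling, robust dispersions and Benjamini-Hochberg adjustment over all genes at 0.05. A gene is called under that threshold in this fit, unless another is named. DESeq2 1.42.0 and limma 3.58.1 were alternatives. Counts were also simulated for the day 0 comparison, over 17750 genes. In these the 16-library fit recovered 63.2% of genes changed 1.5-fold and 92.4% of those changed 2-fold. Of its calls 4.52% were false, and of the calls of the fit of only the 4 day 0 libraries 11.9% were. The simulation gave all groups the same spread per gene and no effect of transcript length. It therefore gives no rate of false calls for the real libraries, whose spread was unequal. SE is that of the log2 fold change.

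Named genes were the methyltransferases, the 15 largest rises and 15 largest falls in both fits (at least 5 CPM, nearest libraries 1.5-fold apart), up to 2 called members per list and direction, set markers, the 10 lowest adjusted p and the 10 widest gaps between WT replicates, predicted genes left out of these last rankings; some of them are not reported here. Other members named for their role, and those given as not called, were picked from the lists after their values were seen. The members and lists were chosen with earlier results of these data known. The length and GC offset was added after seeing the data. It is a loess fit per library of each gene's deviation on transcript length and GC content.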

Additional observations from a re-analysis of the deposited data

Results flagged for a closer look

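Of 28 genes listed for this purpose, 12 had a difference between TKO and WT at day 0 that differed from the mean difference on days 2, 4 and 7, in a test of that contrast itself (edgeR quasi-likelihood test, Benjamini-Hochberg adjustment over all genes). Values are the day 0 log2 fold change minus the later mean. With 2 libraries per group, single libraries were not examined for standing apart within a group.

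For 6 genes the day 0 difference was the higher. Egr1 differed by 3.934 (adjusted p = 2.32e-05) and Spry4 by 1.661 (adjusted p = 8.78e-06), where day 0 was 2.01 and days 2, 4 and 7 were 0.049, 0.75 and 0.24. Etv4 differed by 0.840 (adjusted p = 0.000145) and Fos by 0.824 (adjusted p = 0.0311). Dnmt3b differed by 1.319 (adjusted p = 0.00134): its log2 fold change was 0.040 at day 0 and -0.91, -1.22 and -1.71 later. Sycp3 differed by 0.922 (adjusted p = 0.00251), with log2 fold changes of -0.84 at day 0 and -2.203, -2.66 and -0.44 later.

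For the other 6 it was the lower. Asz1 differed by -8.267 (adjusted p = 6.61e-09), Dazl by -5.474 (adjusted p = 2.1e-08) and Ddx4 by -2.286 (adjusted p = 2.67e-05). Asz1 and Ddx4 were not called at day 0. On day 7 Asz1 stood at 49.7 and 50.8 CPM in TKO, against 0 and 0 in WT, and Dazl at 26.4 and 21.2 CPM in TKO, against 0.0241 and 0 in WT, so the fitted differences of both depend on how a count of 0 is treated and are no bound. Ddx4 had a log2 fold change of 6.84 on day 7. Dmc1 differed by -2.014 (adjusted p = 0.00031). The naive factors Klf4 and Zfp42 differed by -1.031 (adjusted p = 0.00144) and -0.846 (adjusted p = 0.0368), not called at day 0 and with log2 fold changes of 1.995 and 1.88 on day 7.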

How the results depend on the processing

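The counts of calls at day 0 depended on the libraries and the fit, while no called gene took the opposite call under any alternative. The 16-library fit called 2343 genes (835 higher and 1508 lower), and 5125 had an unadjusted p under 0.05. The fit of only the 4 day 0 libraries called 359 (110 higher, 249 lower) and limma voom with library quality weights 1466 (468 higher, 998 lower). The length and GC offset, added after seeing the data, gave 3125 calls (1475 higher, 1650 lower). With only the 4 day 0 libraries and that offset there were 2792 (1275 higher, 1517 lower). Leaving out 1 day 0 library gave between 687 and 4294 calls, 218 to 1919 of them higher and 469 to 2375 lower, the top values without WT replicate 2. The 3388 genes whose day 0 difference differed from later days became 5380 with the offset and 2022 to 4250 with 1 library left out. Genes beyond both WT replicates numbered 754 at over 1.5-fold and 229 at over 2-fold. DESeq2, relative log expression scaling, the effective-length offset, both filters on low counts and the fit without TKO day 4 kept the total within 1.5 times, between 1623 and 2911. With the replicate number as a replicate block there were 1992 calls (3107 for the contrast with later days), and 2070 with only the 4 day 0 libraries. The numbers do not pair the samples: same-numbered TKO and WT libraries had deviations correlated at 0.063, -0.132, -0.106 and 0.009 on days 0, 2, 4 and 7. Sycp1, at -0.021, became 1.003 (edgeR adjusted p = 0.0138) without WT replicate 2 and -0.605 without WT replicate 1, since these replicates differ. Of 111 named genes called, 53 stayed called under all alternatives, and 48, the most lost under 1 alternative, lost the call with only the 4 day 0 libraries. With those 4 libraries and the length and GC offset 6 lost it. The median over all genes stayed between -0.025 and 0.008. List medians that changed sign with scaling were those of core and naive pluripotency, methylation machinery, imprinted genes, Polycomb, cell cycle, p53 targets, endoderm, fibroblast and Hox genes. Causes were not tested.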
